A study of Mus musculus with 3 samples.

Results

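The genes described here were 10 cytokine-related genes of the interleukin-1, interleukin-6, colony-stimulating and tumour necrosis factor families, read in cardiac myofibroblasts, activated fibroblasts that contract and lay down matrix after injury. They were Il1a, Il1b, Il1rn, Il1rl1, Il33, Il6, Il11, Lif, Csf1 and Tnf. Members were chosen by name, as the array probes whose transcript accession belongs to 1 of these genes, and were found as 14 probes on 42 spots. All 10 were among the 15393 genes measured, where measured means that some probe of the gene passed the scanner software's test for being well above background (on any of the arrays), and Il1a and Il1b entered through the non-adherent array alone. Cells came from hearts of male C57BL/6J mice taken 3 days after the left anterior descending coronary artery had been tied off for good. The labels give the age as 8 weeks in one field and as 10 weeks at ligation in another. All 3 groups shared the ligation, the overnight attachment to plastic and the depletion of cells carrying CD45, a leukocyte surface protein, and no unoperated or untreated group was included. Adherent cells (Ad) were grown on plastic plates, non-adherent cells (Non) were then kept in suspension, and re-adherent cells (Re) were returned from suspension to plastic. Per the design text each RNA was a mixture from several hearts. Each group had 1 array, so no replicate spread and no p-value exist, and the longer time in culture from Ad to Non to Re cannot be told apart from the state of the cells. The authors' methods also report that cell numbers fell in suspension through death of detached cells. This loss of cells cannot be told apart from the state of the cells either.

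Interleukin-1 alpha and beta bind a common receptor and switch on NF-κB, and the antagonist encoded by Il1rn occupies that receptor without signalling. IL-33 belongs to the same family, is stored in the nucleus of stromal and endothelial cells and acts on ST2, the product of Il1rl1. IL-6, IL-11 and LIF each use a receptor of their own together with the common chain gp130, which activates JAK kinases and STAT3. CSF1 keeps macrophages alive through the receptor tyrosine kinase encoded by Csf1r, and TNF is an inflammatory cytokine made largely by macrophages. In the infarcted heart these cytokines pass signals between fibroblasts and leukocytes.

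The cytokine genes split into opposite groups when the cells lost their support. In suspension Il1a, Il1b, Il1rn, Il33 and Tnf were higher and Il6, Il11, Lif and Csf1 were lower, each by over 2-fold, whereas Il1rl1 differed by less on its brightest probe. A share of 17.2% of all genes measured was over 2-fold higher and 14.7% over 2-fold lower in the same pair of arrays. At 4-fold the counts were 4 of 10 higher, against 7.61% of all genes, and 4 of 10 lower, against 5.34%. After re-attachment the direction of these genes turned. Il6, Lif and Csf1 were over 2-fold higher than in suspension (3 of 10, 15.6% of all genes). Il1a, Il1b, Il1rn, Il33 and Tnf were counted as over 2-fold lower (5 of 10, 16.3%). With low signals raised to the floor Il1a dropped out of this count (4 of 10, 13.9%). At 4-fold 3 of 10 were higher (5.70% of all genes) and 4 of 10 lower (6.05%). Il1a, Il1b and Lif were counted at their own dim readings, for which the bounds given with each gene hold. The bounds of Il1b also passed 4-fold on both steps, but those of Il1a did not. For Lif the bounds equal its own dim reading, which lay above the floor, so its place in these counts rests on that reading. Il1a was at least 2.04-fold higher in suspension and at least 1.55-fold lower after re-attachment. Its place in both 4-fold counts, and in the 2-fold count after re-attachment, therefore rests on dim readings alone. The steps share the non-adherent array, so a high or low reading there moves both in opposite directions, and the 2 counts are not independent.

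**Figure D1:**
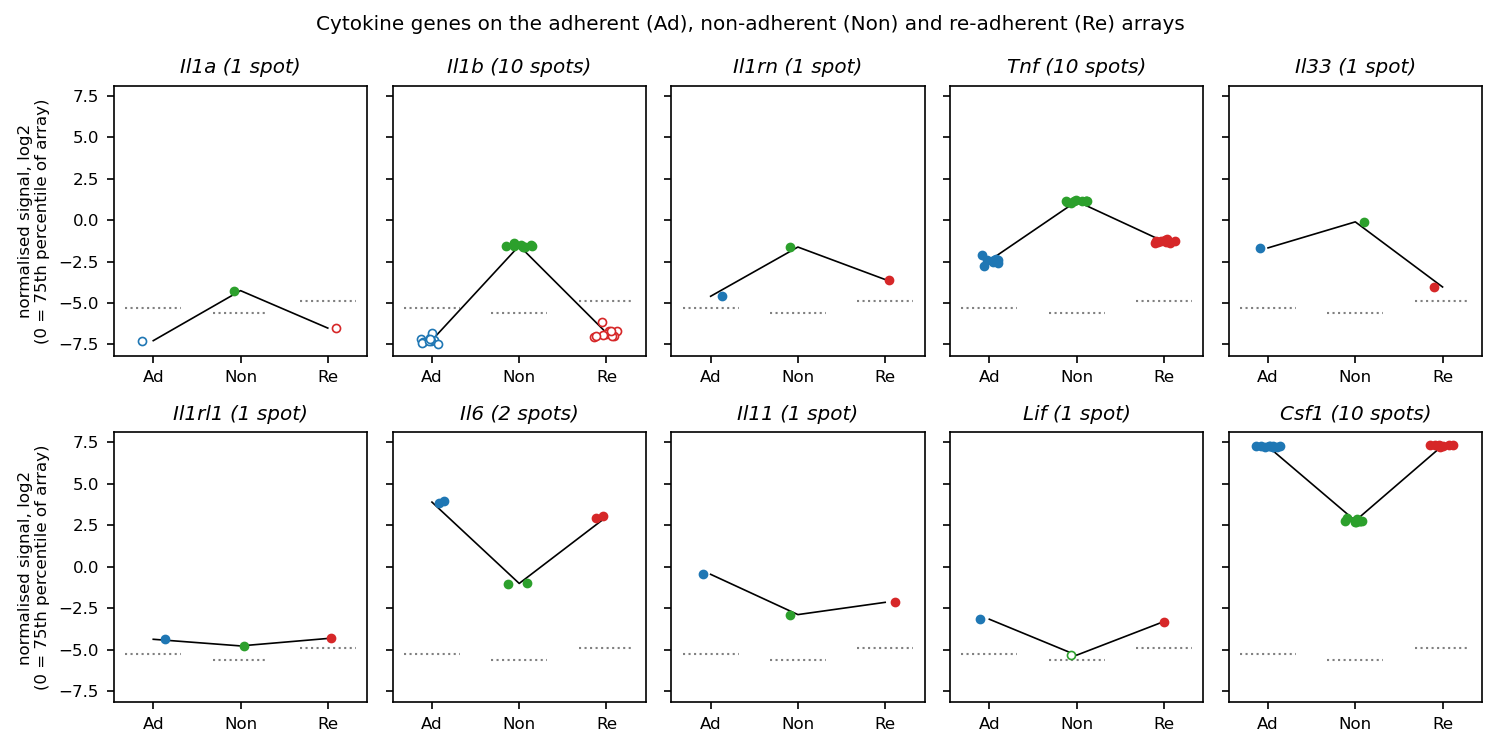
Normalised log2 signal (0 is the 75th percentile of the array) of the 10 cytokine genes on the Ad, Non and Re arrays, 1 point per spot of the probe used. Open points mark a probe not well above background, dotted lines the lowest signal well above background on each array, and the line joins the gene's values. Csf1 and Il6 dip on the Non array while Il1b and Tnf peak there.

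The sequences upstream of the genes that were lower in suspension are shown, because their regulation by inflammatory transcription factors is well described. Whether these genes share a regulator was not tested. They are RefSeq sequences of the mouse assembly GRCm38.p6 and cover the 250 bases before the start of the transcript. Capitals mark matches to AP-1 (TGANTCA), C/EBP (TTGCNNAA) or the NF-κB consensus on either strand, and the strand after the coordinates is that of the gene. Of the 2 starts listed for Il11, the one whose window holds a match is shown.
Il6, chr5:30012864-30013113, plus strand: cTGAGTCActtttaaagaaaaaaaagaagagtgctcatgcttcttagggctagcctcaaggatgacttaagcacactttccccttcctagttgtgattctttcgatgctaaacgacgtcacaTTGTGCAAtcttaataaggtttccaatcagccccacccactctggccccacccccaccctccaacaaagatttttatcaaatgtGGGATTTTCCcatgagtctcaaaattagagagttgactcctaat
Il11, chr7:4778142-4778391, minus strand: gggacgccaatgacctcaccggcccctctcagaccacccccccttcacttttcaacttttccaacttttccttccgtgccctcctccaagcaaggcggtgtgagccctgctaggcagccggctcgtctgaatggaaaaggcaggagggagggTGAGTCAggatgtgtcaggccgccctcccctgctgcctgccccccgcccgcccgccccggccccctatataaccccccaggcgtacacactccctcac
Lif, chr11:4257318-4257567, plus strand: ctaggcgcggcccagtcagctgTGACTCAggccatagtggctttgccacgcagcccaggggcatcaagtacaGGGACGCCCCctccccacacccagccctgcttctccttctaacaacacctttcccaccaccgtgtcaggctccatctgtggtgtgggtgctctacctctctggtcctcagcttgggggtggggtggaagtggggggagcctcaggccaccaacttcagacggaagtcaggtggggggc
Csf1, chr3:107760470-107760719, minus strand: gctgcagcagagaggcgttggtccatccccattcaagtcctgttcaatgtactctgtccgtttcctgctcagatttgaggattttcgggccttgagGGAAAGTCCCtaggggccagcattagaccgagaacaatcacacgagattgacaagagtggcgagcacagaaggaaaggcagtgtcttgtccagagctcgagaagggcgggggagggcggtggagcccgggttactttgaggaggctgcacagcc
The Il6 window held an AP-1 match, a C/EBP match and an NF-κB match ending 35 bases before the start. The Lif window held AP-1 and NF-κB, that of Il11 an AP-1 match and that of Csf1 an NF-κB match. Over all members 5 of 15 windows held AP-1 (Il6, Il11, Lif, Il1a and Il1rn) beside 6.75% of 32851 mouse windows, and 3 held NF-κB beside 7.25%. The STAT motif TTCNNNGAA was in none of the 15 and in 7.02% of all windows, C/EBP was in 3 (Il6, Il33 and Il1rl1) beside 9.56%, and the TEAD motif CATTCC was in 4 windows of Il1rn, Il33 and Il1rl1 beside 12.6%. The Il1b and Tnf windows held none of these letters. A match describes the letters in this window and is not a bound site.

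Il6 encodes the cytokine that gives the family its name. Its signal was 9705 intensity units on the Ad array, 345 on the Non array and 4357 on the Re array. Both of its spots were low in suspension, at 332 and 359, against 9232 and 10202 in Ad cells and 4248 and 4468 in Re cells. After scaling, Il6 was 30.1-fold lower in Non than in Ad cells (log2 difference -4.91 ± 0.20, technical error of the 2 readings) and 16.2-fold higher in Re than in Non cells (4.02 ± 0.20). Re cells read 1.85-fold below Ad cells, a log2 difference of -0.89 ± 0.20, which passed 2-fold under 4 other scalings (-1.01 to -1.35). In such bulk samples fewer cells of a type and less RNA per cell cannot be told apart.

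Il11 encodes a fibroblast cytokine of the same family that has been tied to fibrosis. It read 473, 93.8 and 122 units on the Ad, Non and Re arrays, with the highest reading in Ad cells. It was 5.40-fold lower in suspension (-2.43 ± 0.21). Return to plastic gave a difference of 0.74 ± 0.22, under 2-fold, and Re cells stayed 3.23-fold below Ad cells (-1.69 ± 0.21). Of the 4 genes lower in suspension, Il11 was the one that did not pass 2-fold after re-attachment.

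Lif, a further gp130 ligand with protective effects on cardiac cells, read 72.3 units in Ad and 54.5 in Re cells and 17.2 in suspension, where it was not well above background. It was at least 4.49-fold lower in suspension than before and at least 4.07-fold higher after re-attachment. The bounds use the dim reading itself, which lay above the array's floor, the lowest signal well above background, and they leave out the error of that reading. Ad and Re cells differed by -0.14 ± 0.26. With a model-based background correction in place of the software's own, which compresses dim signals, the steps of Lif came to -0.73 and 0.68, both under 2-fold.

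Csf1 gave the brightest readings of its probe on the 2 plastic arrays. Its signal was 99385 units in Ad, 4750 in Non and 85896 in Re cells, and no spot was saturated. Over the 10 spots of this probe (transcript NM_007778) the ranges were 95395 to 103222, 4501 to 5233 and 80940 to 89069, so the suspension readings lay far from both others. Csf1 was 22.4-fold lower in suspension (-4.48 ± 0.20) and 23.3-fold higher after re-attachment (4.54 ± 0.20). Ad and Re cells differed by 0.06 ± 0.20. The 2 other Csf1 probes, both assigned to NM_001113530, moved the same way by less. One read 18681, 2531 and 14133 units, 7.90-fold lower in suspension and 7.19-fold higher after it. The other read 23158, 3100 and 17159 units, 7.99-fold lower and then 7.12-fold higher.

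Csf1 and Il6 had summed changes over both steps that differed by less than the error of 1 step, and their order turned with quantile normalization, with the correction by neighbouring spots and with the mean of all probes. Nearest genes were sought for Csf1, which came first with the scaling used here. The 5 genes with the nearest pair of steps, of 13475 genes well above background on every array, were Lox (Euclidean distance 0.08 on the log2 scale), Fosl1 (0.10), Esrp2 (0.11), Hmga2 (0.14) and Parva (0.14). Lox encodes the enzyme lysyl oxidase, which crosslinks collagen, Fosl1 a subunit of AP-1 and Parva an adaptor of integrin adhesions. Likeness is measured here over 3 arrays only and with the brightest Csf1 probe.

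Il1b, the secreted inflammatory form of interleukin-1, was read in suspension alone. Its 10 spots averaged 4.32 units on the Ad array (3.73 to 5.70), 240 on the Non array (223 to 263) and 4.86 on the Re array (4.18 to 7.61). All 10 spots were well above background in suspension and 0 of 10 on either plastic array, and the ranges did not overlap. Il1b was at least 13.4-fold higher in Non than in Ad cells and at least 10.2-fold lower in Re than in Non cells.

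Il1a, the form kept inside or on the surface of cells, read 4.22, 36.6 and 5.92 units on the Ad, Non and Re arrays and was above background in suspension only. Its 1 spot was dim: it was at least 2.04-fold higher in Non than in Ad cells, and the bound on its loss after re-attachment was 1.55-fold. Taken at their own dim readings the steps were 3.02 ± 1.46 and -2.26 ± 1.16, and with the model-based background correction they were 0.45 and -0.02. Il1b kept its direction with that correction, at 2.05 and -1.79.

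Il1rn, the receptor antagonist, was read on every array, at 27.1 units in Ad, 227 in Non and 45.2 in Re cells. It was highest in suspension, 7.83-fold above Ad cells (2.97 ± 0.31), and 3.90-fold lower again after re-attachment (-1.96 ± 0.26). Ligand and antagonist of the interleukin-1 receptor peaked on the same array.

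Tnf read 120 units on the Ad array over its 10 spots (95.4 to 150), 1544 on the Non array (1445 to 1601, with 1 spot left out as an outlier of its set) and 222 on the Re array (207 to 243). The 3 ranges did not overlap. Tnf was 12.0-fold higher in suspension (3.59 ± 0.21) and 5.40-fold lower after re-attachment (-2.43 ± 0.21), and Re cells read 2.23-fold above Ad cells (1.15 ± 0.21).

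Il33, an alarmin released from damaged cells, read 205, 652 and 33.1 units on the Ad, Non and Re arrays. It was 2.97-fold higher in suspension (1.57 ± 0.21) and then fell below its adherent signal, 15.3-fold lower in Re than in Non cells (-3.94 ± 0.27) and 5.15-fold lower in Re than in Ad cells (-2.37 ± 0.27). Its receptor gene Il1rl1 was near the floor. The probe used, assigned to NM_001025602, read 31.4, 25.4 and 26.9 units, with steps of -0.40 ± 0.31 and 0.44 ± 0.34. A probe assigned to NM_010743 read 26.2 units in Ad cells, 3.69 in suspension and 17.3 in Re cells, the last 2 not above background, and gave a fall of at least 2.00-fold in suspension. Another probe for NM_001025602 was not above background on any array. The Il1rl1 probes differed in how far the gene fell in suspension, and the soluble and membrane forms of ST2 were not separated here.

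**Figure D2:**
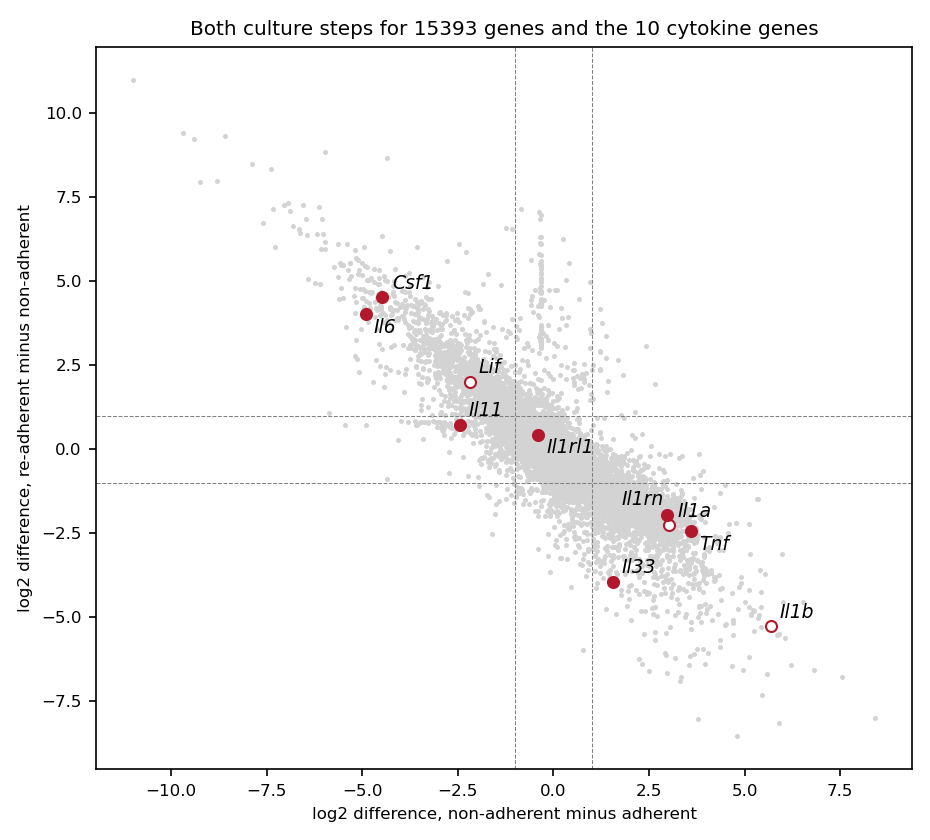
Log2 difference on moving to suspension (horizontal axis) against the log2 difference on re-attachment (vertical axis) for 15393 genes (grey) and the 10 cytokine genes (red, open where a reading was not well above background). Dashed lines mark 2-fold, and both axes share the non-adherent array. Csf1, Il6 and Lif lie at upper left and Il1b, Tnf, Il33, Il1a and Il1rn at lower right.

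Compared directly, the 2 plastic cultures differed less. Tnf and Il1rn were over 2-fold higher in Re than in Ad cells (2 of 10, against 4.84% of all genes), Il1rn by 2.01-fold, close to the limit. Il33 and Il11 were over 2-fold lower (2 of 10, against 4.90%). At 4-fold 0 of 10 were higher (1.36% of all genes) and Il33 was lower (1 of 10, against 1.29%). The higher calls depended on scaling: with the authors' values, without scaling, or with the model-based background correction neither Tnf nor Il1rn passed 2-fold. Il33 and Il11 stayed over 2-fold lower in each of these settings.

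Across the arrays as a whole, 58.1%, 59.9% and 53.9% of the 59305 spots that were not controls passed the background test in Ad, Non and Re cells, and the floor was 16.7, 14.0 and 18.3 units. The median software error of a log2 difference was 0.20. For probes with repeated spots, the SDs over the spots on both arrays combined to a median of 0.10 on the log2 scale. File headers place all arrays on 1 slide with 1 scan, while the batches of RNA preparation and labelling are not given. The myofibroblast marker Acta2, which encodes smooth muscle actin, read 434804, 4682 and 345124 units and was 99.4-fold lower in suspension. This defining marker of the labelled cell type was thus far below its plastic readings on the Non array, though still above that array's 75th percentile (697 units). Of 8 fibroblast markers 2 were over 2-fold higher and 3 lower in suspension, with 3 within 2-fold (median -0.63), among them the collagen gene Col1a1 at -0.70.

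Macrophage genes moved with the cytokines that rose in suspension. Ptprc, which encodes CD45 itself, read 355, 2441 and 532 units on the Ad, Non and Re arrays, 6.42-fold higher in suspension, although the cells had been depleted of CD45-positive cells before culture. Of 14 macrophage markers measured, 13 were over 2-fold higher in suspension (median 2.69), 13 were over 2-fold lower after re-attachment (median -1.71) and 6 were over 2-fold higher in Re than in Ad cells (median 0.88). Medians of all genes were -0.07, 0.08 and 0.06. Of all genes 17.2% were over 2-fold higher in suspension and 16.3% over 2-fold lower after re-attachment. In Re against Ad cells 4.84% were over 2-fold higher. Summed over markers, the level relative to the 75th percentile of each array was 362, 1991 and 598 in Ad, Non and Re cells. The markers with the highest mean signals, Ctss, Csf1r and Fcer1g, were all well above background on every array, whereas Cd163 was not above background on any and no probe was matched to Cd68. Il1b, Il1rn and Tnf, which macrophages make, peaked on the array where these markers peaked, and the part of macrophages in these differences was not tested.

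Markers of other cell types gave further values to set beside the cytokines. Over the 10 endothelial markers the median was 1.18 in suspension and -2.67 after re-attachment. In Re against Ad cells 6 of the 10 were over 2-fold lower, against 4.90% of all genes, and 4 lay within 2-fold. The median there was -1.77, or -1.17 over the 8 above background on both arrays, beside Il33, which endothelial and stromal cells make. Of 8 fibroblast markers 2 were over 2-fold lower in Re than in Ad cells, 0 were higher and 6 lay within 2-fold (median -0.47). The same 2 fibroblast markers were over 2-fold higher in suspension and over 2-fold lower after re-attachment, as Il33 was. The summed level of the endothelial markers was 24.4, 38.1 and 22.9. Of the 3 with the highest signals, Egfl7 was lower in Re than in Ad cells (-1.62), while Kdr (0.39) and Vwf (-0.08) lay within 2-fold. Of 9 neutrophil markers 4 were measured, and S100a9 was not above background on any array. In suspension 2 of the 4 were over 2-fold higher and 0 lower (median 0.75), whereas their summed level, most of it from Csf3r, was 98.1, 89.1 and 78.5. Of 12 lymphocyte markers 6 were measured (8.03, 10.3 and 9.36), of 7 mast cell markers 4 (0.380, 0.811 and 0.515) and of 9 cardiomyocyte markers 7 (1.32, 2.12 and 3.42). The part of these cell types in the cytokine differences was not tested.

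**Figure D3:**
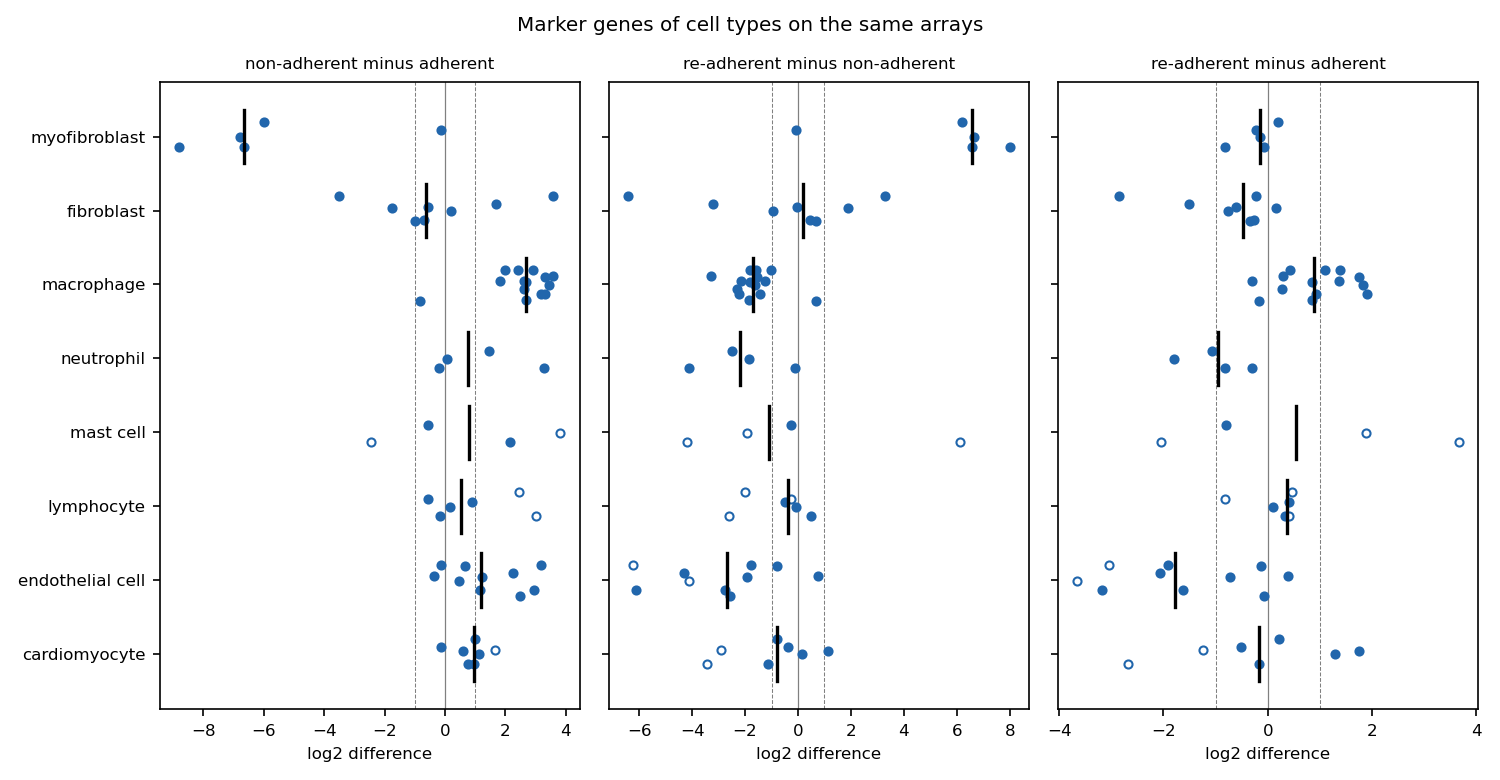
Log2 differences between arrays for the marker genes of 8 cell types, 1 point per gene, open where a reading was not well above background, with the median as a bar and 2-fold as dashed lines. In suspension 13 of 14 macrophage markers lie to the right of 2-fold and 4 of 5 myofibroblast markers far to the left.

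The receptors of these cytokines were all read on every array, and 4 of 12 were over 2-fold higher and 3 lower in suspension (median 0.41). Csf1r, the CSF1 receptor, moved against its ligand gene. It read 27054 units in Ad, 176899 in Non and 58213 in Re cells, 6.11-fold higher in suspension (2.61 ± 0.20) and still 2.59-fold above Ad cells after re-attachment. The others that were higher in suspension were Sigirr, an inhibitory receptor of the interleukin-1 family (4.10-fold), Tnfrsf1b, the inducible TNF receptor (3.61-fold), and Il6ra, the chain that binds IL-6 (3.25-fold). Il6ra read 2668, 9283 and 3106 units and so ran opposite to Il6.

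The 3 receptor genes over 2-fold lower in suspension were Il1rap, Il6st and Osmr. Il1rap, the accessory chain of the interleukin-1 and IL-33 receptors, read 383, 97.2 and 319 units and was 4.22-fold lower in suspension and 4.22-fold higher after re-attachment. Il6st, which encodes gp130, read 13648, 5188 and 8570 units and was 2.82-fold lower and then 2.13-fold higher. Osmr, a gp130 partner for oncostatin M, was 2.02-fold lower in suspension and differed by 0.46 ± 0.20 after re-attachment. Il6ra and Il6st, whose products act together, moved in opposite directions in this bulk RNA.

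The remaining receptors differed from Ad to Non cells by less than 2-fold, as did Il11ra1 (0.95), Tnfrsf1a (0.72), Il1r2 (0.09), Lifr (-0.10) and Il1r1 (-0.44). Several of them were low in Re cells. Il1r1, the signalling interleukin-1 receptor, read 4854, 3830 and 1615 units and was 2.50-fold lower in Re than in Ad cells. The decoy receptor Il1r2 read 109, 124 and 27.1 units and was 3.34-fold lower, and Lifr read 1060, 1058 and 433 units and was 2.04-fold lower. Over the list, 2 receptors were higher and 5 lower after re-attachment (median -0.90), and 1 was higher and 3 were lower in Re than in Ad cells (median 0.04).

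For this list and those that follow, the background is the 17.2% of all genes over 2-fold higher and the 14.7% over 2-fold lower in suspension, with a median of -0.07. After re-attachment 15.6% of all genes were over 2-fold higher and 16.3% lower (median 0.08). In Re against Ad cells the shares were 4.84% and 4.90% (median 0.06). In suspension the other ligands came near the first of these backgrounds. Of 18 other ligands of the same families 10 were measured, 3 higher and 2 lower in suspension (median -0.12, or -0.38 over the 9 above background on both arrays). Il34, which encodes the other ligand of the CSF1 receptor, followed Csf1: it read 1022, 143 and 1456 units, 7.64-fold lower in suspension and 13.1-fold higher after re-attachment. Clcf1, a gp130 cytokine, read 861, 158 and 448 units and was 5.83-fold lower in suspension. Osm, a gp130 cytokine of leukocytes, read 28.2, 222 and 33.7 units and was 7.35-fold higher there, and Il18, an interleukin-1 relative, read 129, 826 and 196 units and was 5.98-fold higher. Ltb, a TNF relative, was measured through the suspension array alone, at 43.0 units (at least 2.40-fold higher than in Ad cells). Csf2, Csf3, Lta and Il1f10 were not above background on any array.

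Of 25 other interleukins, 10 were measured, with 5 higher and 1 lower in suspension (median 0.71). Over the 6 above background on both arrays the median was 0.02. The 5 counted as higher include Il10 and Il4, which were measured through the suspension array alone, and Il19, which was above background on neither array of this pair and so has no measured difference there. Il10, an anti-inflammatory cytokine, read 16.6, 204 and 14.9 units on the Ad, Non and Re arrays and was above background in suspension alone, at least 11.4-fold above Ad cells and at least 8.64-fold above Re cells. Il4 was also read there only, at 37.9 units. Il15 (4.06-fold) and Il16 (2.56-fold) were higher in suspension, whereas Il17d (-0.89) and Il22 (-0.30) differed by less than 2-fold.

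Of 10 genes that mature or release these cytokines, 5 were over 2-fold higher in suspension, 1 was lower and 4 lay within 2-fold (median 0.93). Casp1, the protease that activates IL-1β and IL-18, read 1498, 12596 and 2087 units (7.86-fold higher), and its adaptor Pycard read 2404, 17351 and 3530 units (6.74-fold higher). Il18bp, which neutralises IL-18, was 3.73-fold higher and Adam17, which sheds TNF, 2.65-fold higher. After re-attachment 5 were lower and 1 higher, and 0 passed 2-fold between Re and Ad cells. Protein release was not measured.

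Among signal transducers and transcription factors 6 of 18 were higher and 1 was lower in suspension (median 0.20). Cebpd, a C/EBP factor of the acute-phase response, read 60466, 16506 and 42290 units and was 3.92-fold lower. Tyk2, a JAK kinase, was 3.05-fold higher, Relb, an NF-κB subunit, 2.86-fold higher and Myd88, the adaptor of the interleukin-1 receptor, 2.28-fold higher. Rel was not above background on any array.

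Of 17 feedback inhibitors and mRNA regulators, 6 were higher and 2 lower in suspension (median 0.60). Zfp36, whose product speeds the decay of Tnf and other cytokine mRNAs, read 141, 1014 and 99.0 units, 6.70-fold higher in suspension and 7.96-fold lower after re-attachment. Nfkbie (3.38-fold) and Nfkbia (2.34-fold), inhibitors of NF-κB, were higher in suspension, and Socs2, a suppressor of cytokine signalling, was 2.28-fold lower.

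Genes that these cytokines are known to induce in fibroblasts gave 9 of 20 higher and 4 lower in suspension (median 0.72, or 0.44 over the 19 above background on both arrays), and 3 higher and 11 lower after re-attachment (median -1.19). The 3 with the largest measured rise encode acute-phase proteins. Serpina3n read 432, 10617 and 224 units (23.0-fold higher, then 36.8-fold lower), Saa3 read 1108, 21259 and 489 units (17.9-fold higher, then 33.8-fold lower) and Hp read 2325, 18996 and 221 units (7.63-fold higher, then 66.8-fold lower). Timp1, an inhibitor of matrix proteases, ran the other way with Il6, at 245438, 39070 and 129991 units (6.72-fold lower, then 4.28-fold higher). Cxcl2, a neutrophil chemokine, was above background in suspension alone, at 223 units (at least 12.5-fold higher). In Re against Ad cells 7 of the 20 were over 2-fold lower and 0 higher (median -0.70).

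**Figure D4:**
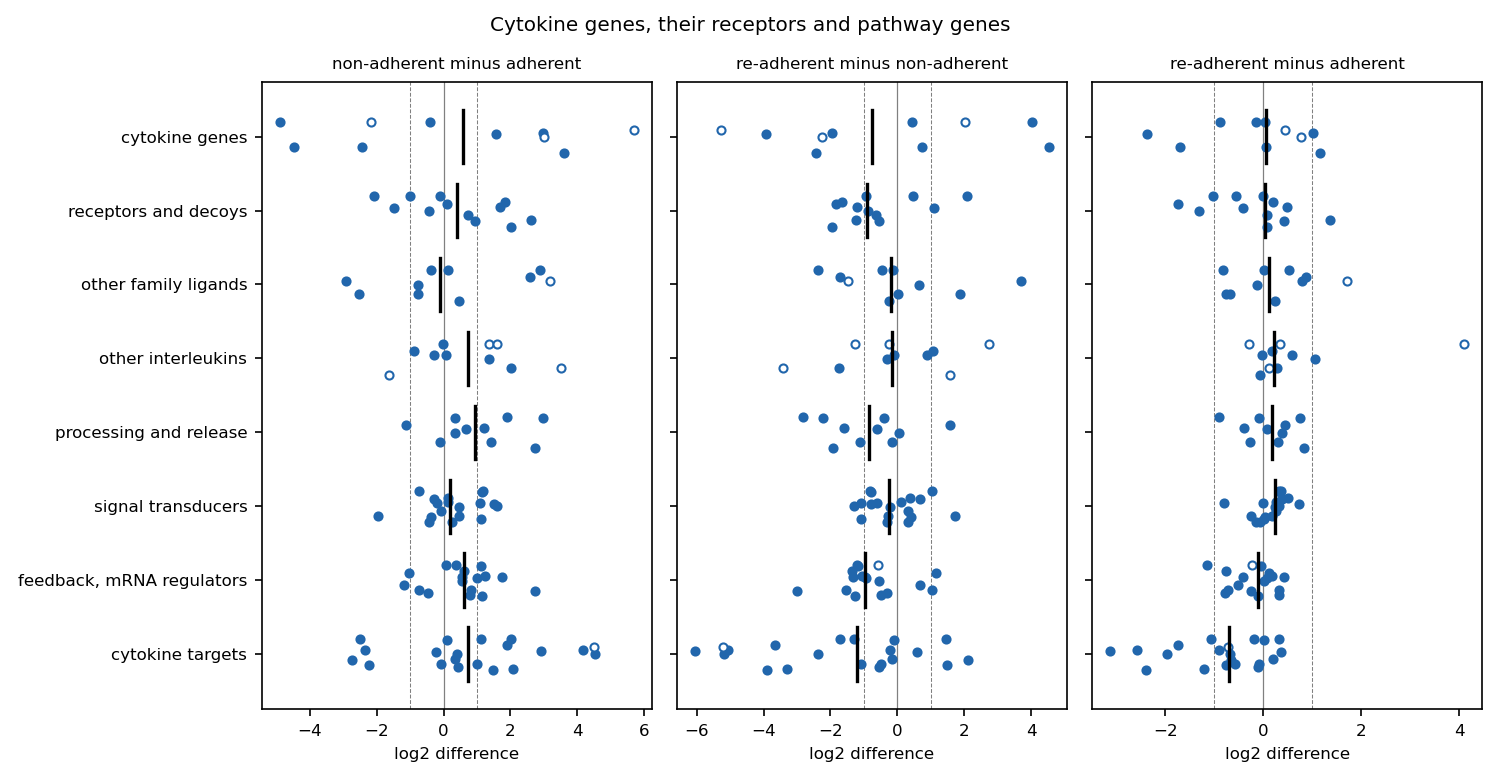
Log2 differences between arrays for the 10 cytokine genes and the measured genes of 7 pathway lists, 1 point per gene, open where a reading was not well above background, with the list median as a bar and 2-fold as dashed lines. Il6 lies furthest to the left among the cytokine genes in suspension, at -4.91, Il1b at the right is a dim reading with a bound only, and processing genes have a median of 0.93.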

How the data were processed

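Total RNA of the 3 cultures was read on 1-colour Agilent SurePrint G3 mouse arrays. The authors' deposited scanner files held spot intensity from Agilent Feature Extraction 10.10.1.1, background-subtracted, with an error and flags per spot. The deposited series values were intensity as well, equal to that signal times 1.52, 1.52 and 1.62 on the Ad, Non and Re arrays (column medians 60.8, 61.8 and 50.7). How those constants were set is not given in the sources used here.

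Flagged spots were left out (154, 180 and 175), log2 signals were reduced by each array's 75th percentile (651, 697 and 541 units) and spots of a probe were averaged. Transcript accessions were matched to RefSeq symbols (GRCm38.p6) for 27235 of 55681 probes, and a gene took its probe with the highest mean. Differences carry the software's errors of both readings, which cover technical error only, and their number of arrays limits precision. A reading not well above background on 1 array gave a bound only, computed against the higher of the floor and its own signal.

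Members, lists and tests were chosen with earlier results of these data known. All members and receptors were named. Of each other pathway list, up to 4 genes with the largest difference in suspension were named among those above background on both arrays, and up to 2 read on 1 array only. Of the marker lists, Ptprc, Acta2, Col1a1 and at most 3 of the brightest genes were named, and for Csf1 its 5 nearest genes.

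Alternatives were the authors' values, no scaling, quantile normalization, normexp (limma 3.58.1 in R 4.3.3, offset 50, on the median spot and background signals), other filters, probe averaging, correction by neighbouring spots, a 4-fold limit and, added after the data had been seen, scaling by 7 spike-in probes. Scripts used Python 3.11.15, numpy 2.4.6 and pandas 2.3.3 and were tested on simulated data.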

Additional observations from a re-analysis of the deposited data

How the results depend on the processing

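No paired analysis was possible because every state was read on 1 array, and for the same reason no replicate could be left out. Of 261 differences of the cytokine genes recomputed under alternatives, 0 changed sign among those past 2-fold. Some alternatives repeat the main value by construction, such as the filter on all 3 arrays. Below 2-fold, signs did change in Re against Ad cells. Csf1 kept its direction there in 4 of 9 alternatives, Il1rl1 in 5 of 9 and Il1b in 7 of 8. With only genes above background on all 3 arrays, the 5 genes higher in suspension became 3 (15.2% of all genes kept). The 5 lower after re-attachment also became 3 (13.3%), since Il1a and Il1b drop out of both counts. The 4 lower in suspension became 3 (13.4%) and the 3 higher after re-attachment became 2 (14.3%), since Lif drops out. Normexp gave 4 higher and 3 lower in suspension, and 2 higher and 4 lower after re-attachment. The mean of all probes gave 5 lower in suspension (14.8%) and 4 higher after re-attachment (15.3%), with Il1rl1 added at -1.66 and 1.52. The count of genes higher in Re than in Ad cells, 2 (4.84% of all genes), became 0 under several settings. These were the authors' values (3.58%), no scaling (3.14%), normexp (2.14%), the spike-in probes (2.35%) and 4-fold (1.36%). The count became 1 with the correction by neighbouring spots (4.72%). The count lower in Re than in Ad cells, 2 (4.90% of all genes), became 1 at 4-fold (1.29%). It became 3 with the authors' values (6.52%), quantile normalization (4.93%), no scaling (7.83%) or the spike-in probes (12.1%). The gene added is Il6, at -1.07, -1.01, -1.16 and -1.35 in that order. Without scaling, the median of all genes moved from 0.08 to -0.28 (Re against Non) and from 0.06 to -0.20 (Re against Ad), and with the spike-in probes from -0.07 to -0.41 (Non against Ad) and from 0.06 to -0.40 (Re against Ad). The cause of the lost calls was not tested beyond these shifts. Signals near the floor limit Il1a, Il1rl1 and Lif.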
